A study of Rattus norvegicus with 6 samples.

Results

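Immediate early genes are the first genes a cell transcribes after a stimulus. The set described here held 37 genes, chosen by symbol from this class with earlier results of these data known. All 37 had a row among the 17089 genes of the deposited table. Testing required a mean of 10 or more normalized counts over the 6 libraries, which 36 of the 37 genes and 11230 genes in all passed. The gene below that mean was Egr4. The samples were primary cultures of neonatal rat ventricular myocytes, the muscle cells of the lower heart chambers, freshly isolated between postnatal day 1 and 3 (strain Sprague Dawley). The Tbx18 group of 3 libraries received the adenovirus Ad-Tbx18-IRES-GFP, which carries the embryonic T-box transcription factor Tbx18 and GFP on 1 transcript, and the GFP group of 3 libraries received Ad-GFP. Virus was added to both groups on the isolation day, and RNA was taken on day 4 after gene transfer. The columns of all 6 libraries carry the words unpace and Control, which the labels do not explain. The cultures grew on fibronectin in M199-based medium, whose serum content was 10% over the opening 2 days and 2% starting on day 3. Serum itself induces many of these genes, and its schedule was the same in both groups. Cultures of this kind can also hold non-muscle cells of the ventricle. No label says that replicates were separate isolations. The p-values therefore set group differences only against the scatter between these libraries, and that scatter may be technical.

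Between 17074483 and 19800300 reads per library were assigned to genes. Tbx18 itself was listed at 5937 to 6236 normalized counts in Tbx18 libraries and at 268 to 312 in GFP libraries, as labelled. Markers of cardiac myocytes were abundant in every library, with a summed level over 7 genes of 382625 to 404040 in Tbx18 libraries and 760641 to 840360 in GFP libraries. Of these 7 markers 5 were called lower in Tbx18 and 0 higher. The 8 fibroblast markers summed to 514008 to 597956 in Tbx18 libraries and 239314 to 278871 in GFP libraries, with 7 called higher. The 8 smooth muscle and pericyte markers summed to 164841 to 171332 in Tbx18 and 198083 to 213145 in GFP, with 4 called higher and 2 lower. The 8 endothelial markers summed to 2332 to 2465 in Tbx18 and 1615 to 2641 in GFP, with 4 called higher and 1 lower, and the 7 macrophage markers to 1016 to 1432 in Tbx18 and 732 to 1220 in GFP, with 2 called higher. None of the markers with a row was at 0 in all libraries. Fewer cells of a type and less RNA per cell cannot be told apart in such bulk libraries, and the part of these shifts in the results below was not tested.

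In heart muscle cells, stretch, growth factors, adrenergic agonists and calcium entry raise immediate early transcripts through MAP kinases and calcium-dependent kinases, without new protein synthesis. Serum response factor, which binds CArG boxes together with ternary complex factors, and CREB, which binds the cAMP response element (CRE), are the best known factors that relay the signal to these promoters. The first products are transcription factors of the FOS, JUN, EGR, NR4A and KLF families. Others, such as the dual-specificity phosphatases that inactivate MAP kinases and the mRNA decay factor ZFP36, end the response.

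Some promoters of the set hold a CArG box and others a full CRE, and 6 of these are printed here. Of the 37 genes, 25 had an entry in the RefSeq promoter table of build GRCr8, of which the 250 bases before the annotated start were searched on both strands. The other 12, Fos, Jun and Atf3 among them, had no entry and were not searched. A CArG box was found in 6 of the 25 (24%), namely Dusp5, Egr1, Egr2, Klf6, Srf and Zfp36, and in 501 of all 33469 promoters in the table (1.5%). The full CRE, TGACGTCA, was found in 5 of the 25 (20%), Btg2, Dusp1, Ier2, Jund and Maff, and in 1.59% of all promoters. Its core TGACG, which the full element contains, was found in 17 of the 25 (68%) and in 18.2% of all promoters. The EGR site, searched as GCGGGGGCG and GCGTGGGCG, was found in 8 of the 25 (32%) and in 2.85% of all promoters, and TATAAA in 5 (20%) and in 12.9%. The AP-1 site TGACTCA was found in 0 of the 25 windows and in 4.05% of all. The genes were put together as a class known for such elements, so these shares describe the set. Sequences run 5′ to 3′ with the CArG boxes or the full CRE in capitals.
Egr1, chr18:26736828-26737077, plus strand: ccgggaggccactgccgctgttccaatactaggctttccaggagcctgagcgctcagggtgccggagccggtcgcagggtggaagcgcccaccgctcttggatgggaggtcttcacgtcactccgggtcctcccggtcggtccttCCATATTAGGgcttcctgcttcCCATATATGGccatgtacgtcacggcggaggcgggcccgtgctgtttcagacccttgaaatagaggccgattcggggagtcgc
Egr2, chr20:21054442-21054691, minus strand: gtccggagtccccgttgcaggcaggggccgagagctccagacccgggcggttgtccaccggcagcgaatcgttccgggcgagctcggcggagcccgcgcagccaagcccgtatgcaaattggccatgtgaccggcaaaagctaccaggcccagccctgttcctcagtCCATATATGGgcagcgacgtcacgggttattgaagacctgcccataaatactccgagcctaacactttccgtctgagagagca
Dusp5, chr1:262543524-262543773, plus strand: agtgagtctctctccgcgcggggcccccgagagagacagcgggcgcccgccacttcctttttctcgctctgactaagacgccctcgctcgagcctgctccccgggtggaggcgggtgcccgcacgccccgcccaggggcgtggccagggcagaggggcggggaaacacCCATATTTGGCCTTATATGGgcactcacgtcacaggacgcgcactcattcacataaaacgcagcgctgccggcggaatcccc
Srf, chr9:21923826-21924075, plus strand: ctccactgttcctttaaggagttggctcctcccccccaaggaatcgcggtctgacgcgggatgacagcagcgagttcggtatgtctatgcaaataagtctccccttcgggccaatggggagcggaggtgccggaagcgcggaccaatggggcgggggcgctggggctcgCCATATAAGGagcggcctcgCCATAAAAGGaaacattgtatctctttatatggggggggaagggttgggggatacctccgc
Dusp1, chr10:17184603-17184852, plus strand: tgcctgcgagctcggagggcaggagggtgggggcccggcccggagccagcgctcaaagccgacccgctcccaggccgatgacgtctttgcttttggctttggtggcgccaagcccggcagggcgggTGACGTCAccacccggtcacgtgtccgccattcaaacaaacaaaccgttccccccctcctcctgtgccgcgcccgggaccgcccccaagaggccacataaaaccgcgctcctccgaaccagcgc
Btg2, chr13:48087691-48087940, minus strand: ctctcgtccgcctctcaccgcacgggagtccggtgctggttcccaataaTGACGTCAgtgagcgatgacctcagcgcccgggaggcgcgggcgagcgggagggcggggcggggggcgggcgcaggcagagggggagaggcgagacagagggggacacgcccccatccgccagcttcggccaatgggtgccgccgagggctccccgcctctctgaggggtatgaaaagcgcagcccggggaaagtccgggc
In these windows, CArG boxes began 105 and 83 bases before the start in Egr1, 83 bases in Egr2 and 81 and 61 bases in Srf. In Dusp5 they began at 82 and 72 bases and adjoined each other. The CRE began 124 bases before the start in Dusp1 and 201 bases in Btg2. No CArG box shared a base with a CRE core in the 25 windows.

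Far more of these genes were lower than higher in Tbx18 cultures. Of 36 tested genes, 21 (58.3%) were called lower and 1 (2.78%) higher in Tbx18 than in GFP, at a Benjamini-Hochberg adjusted p under 0.05 in limma over all genes tested, whereas 23.5% of all 11230 genes were called lower and 22.5% higher. The remaining 14 were not called. Folds in the text are those of the limma log2 estimate, which averages libraries on the log2(normalized count + 1) scale and can differ from the ratio of the mean counts. A fall of at least 2-fold was called for 12 of the 36 (33.3%), against 4.22% of all genes tested, and a rise of that size for 0 of the 36, against 8.04%. The median log2 fold change was -0.75 over the 36 genes and 0.01 over all genes tested. Every Tbx18 library lay below every GFP library for 19 of the 36 genes (52.8%), against 28.6% of all genes tested. The reverse, every Tbx18 library above every GFP library, held for 2, Klf4 and Nr4a2, against 28.6% of all. With libraries scaled to equal recovered reads, the median of all genes moved to 0.27 and that of the set to -0.49. Under that scaling 16 of the 36 were lower and 5 higher (Fosl2, Klf4, Nr4a2, Rhob, Srf), beside 12% and 42.6% of all genes.

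**Figure D1:**
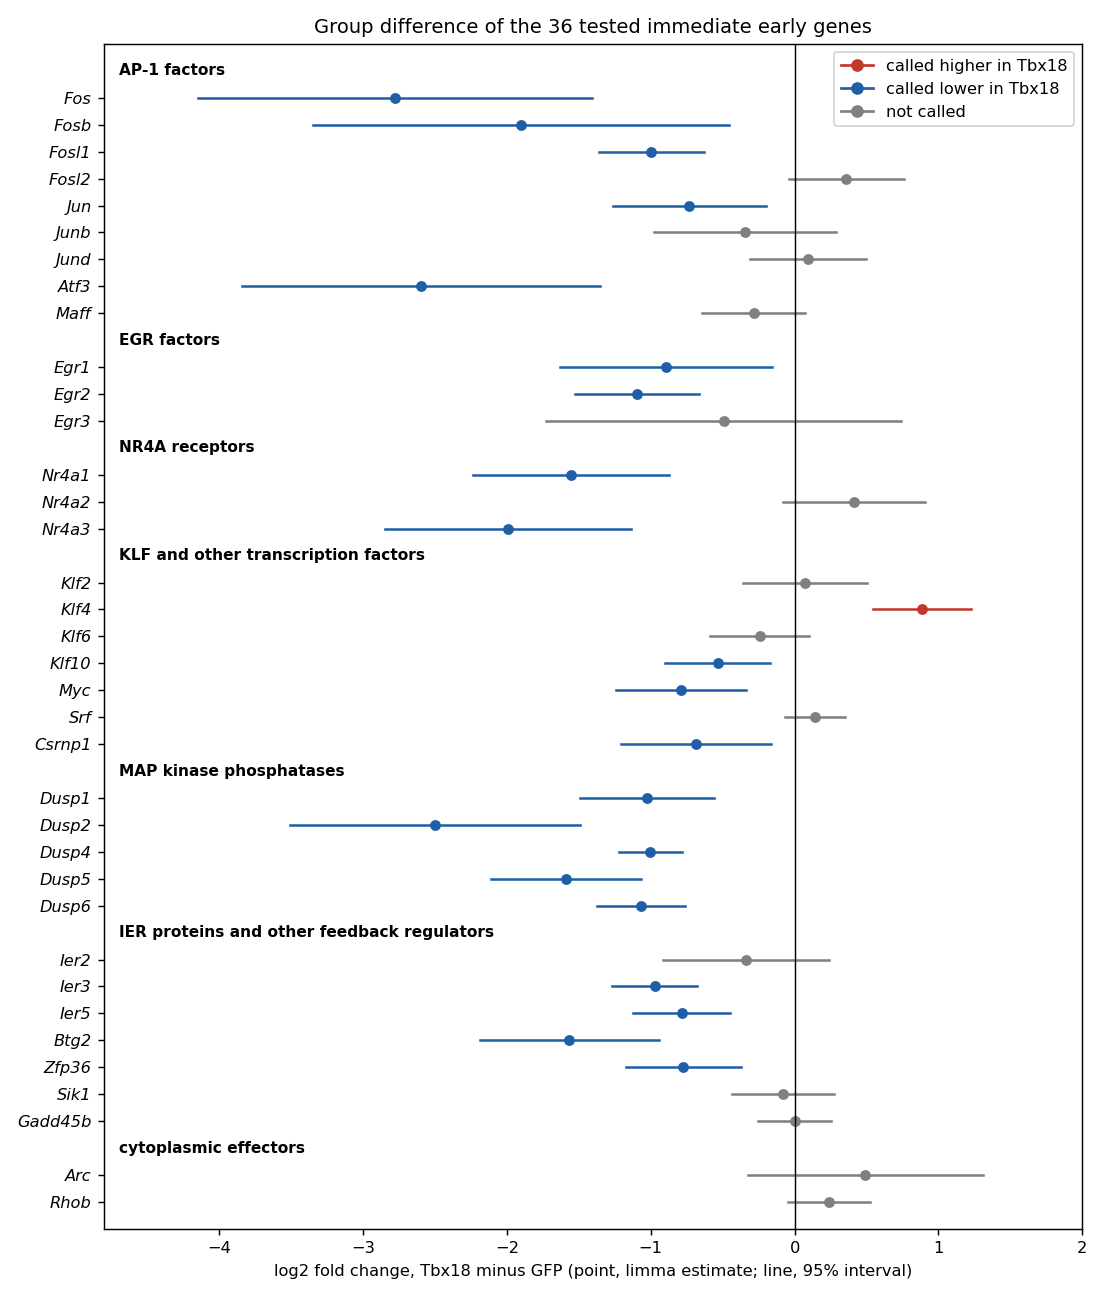
Estimated log2 fold change, Tbx18 minus GFP, of the 36 tested immediate early genes, grouped by family, with the limma 95% interval as a line. The 21 genes called lower are blue, the 1 called higher, Klf4, is red, and the 14 not called are grey.

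Of the 9 AP-1 genes, whose products pair through leucine zippers to form the AP-1 factor, 5 fell, 0 rose and 4 did not pass the test. Fos, the founding member, had 199, 197 and 226 normalized counts in the Tbx18 libraries and 399, 2143 and 3362 in the GFP libraries. The Tbx18 libraries were close to each other and below all GFP libraries, while GFP replicate 1 stood far below the other 2 GFP libraries. The means were 207 ± 16.6 in Tbx18 and 1968 ± 1489 in GFP (SD, n = 3 each), and the log2 estimate was 6.85-fold lower in Tbx18 (log2 fold change -2.78, SE 0.61, limma adjusted p = 0.00475). Atf3, a stress-induced repressor of the same leucine zipper class, had 316, 355 and 309 counts in Tbx18 and 658, 2355 and 4954 in GFP. Its pattern was that of Fos, with no overlap and GFP replicate 1 the lowest of its group, and it fell 6.04-fold (log2 fold change -2.60, SE 0.56, limma adjusted p = 0.00409). Fosb, a Fos paralog that accumulates under repeated stimulation, had 147, 176 and 177 counts in Tbx18 and 178, 729 and 1870 in GFP. Here GFP replicate 1 met the Tbx18 level, being above its highest library by less than 1 count. The fall of Fosb was 3.73-fold with a wide interval of -3.35 to -0.45 on the log2 scale (log2 fold change -1.90, limma adjusted p = 0.036).

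The other AP-1 genes moved less. Fosl1, encoding FRA1, which lacks the activation domain of FOS, was at 404 ± 39.2 in Tbx18 and 818 ± 188 in GFP, a 1.99-fold fall (limma adjusted p = 0.000881). Jun, the main partner of FOS, had 2444, 2691 and 2442 counts in Tbx18 and 2676, 4496 and 6109 in GFP. GFP replicate 1 lay within the Tbx18 range, and the call of Jun (log2 fold change -0.73, SE 0.24, limma adjusted p = 0.0295) was made despite that overlap. Junb, a weaker activator of the JUN family, had 1779, 1660 and 2213 counts in Tbx18 and 1391, 2695 and 3580 in GFP. GFP replicate 1 was below and the other 2 GFP libraries above all Tbx18 libraries, and Junb was not called (log2 fold change -0.35, 95% interval -0.98 to 0.29). Jund, the JUN family member made constitutively in many cells, had 3969, 3790 and 4026 counts in Tbx18 and 2849, 3391 and 5179 in GFP, with overlapping groups, no call and a log2 fold change of 0.09 (interval -0.31 to 0.50). Fosl2, encoding FRA2, was at 217 ± 37.5 in Tbx18 and 169 ± 30.9 in GFP (log2 fold change 0.36, interval -0.04 to 0.76), and Maff, a small MAF protein that pairs with leucine zipper factors, was at 356 ± 44.1 in Tbx18 and 437 ± 84.0 in GFP (-0.28, interval -0.64 to 0.08). Neither was called.

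**Figure D2:**
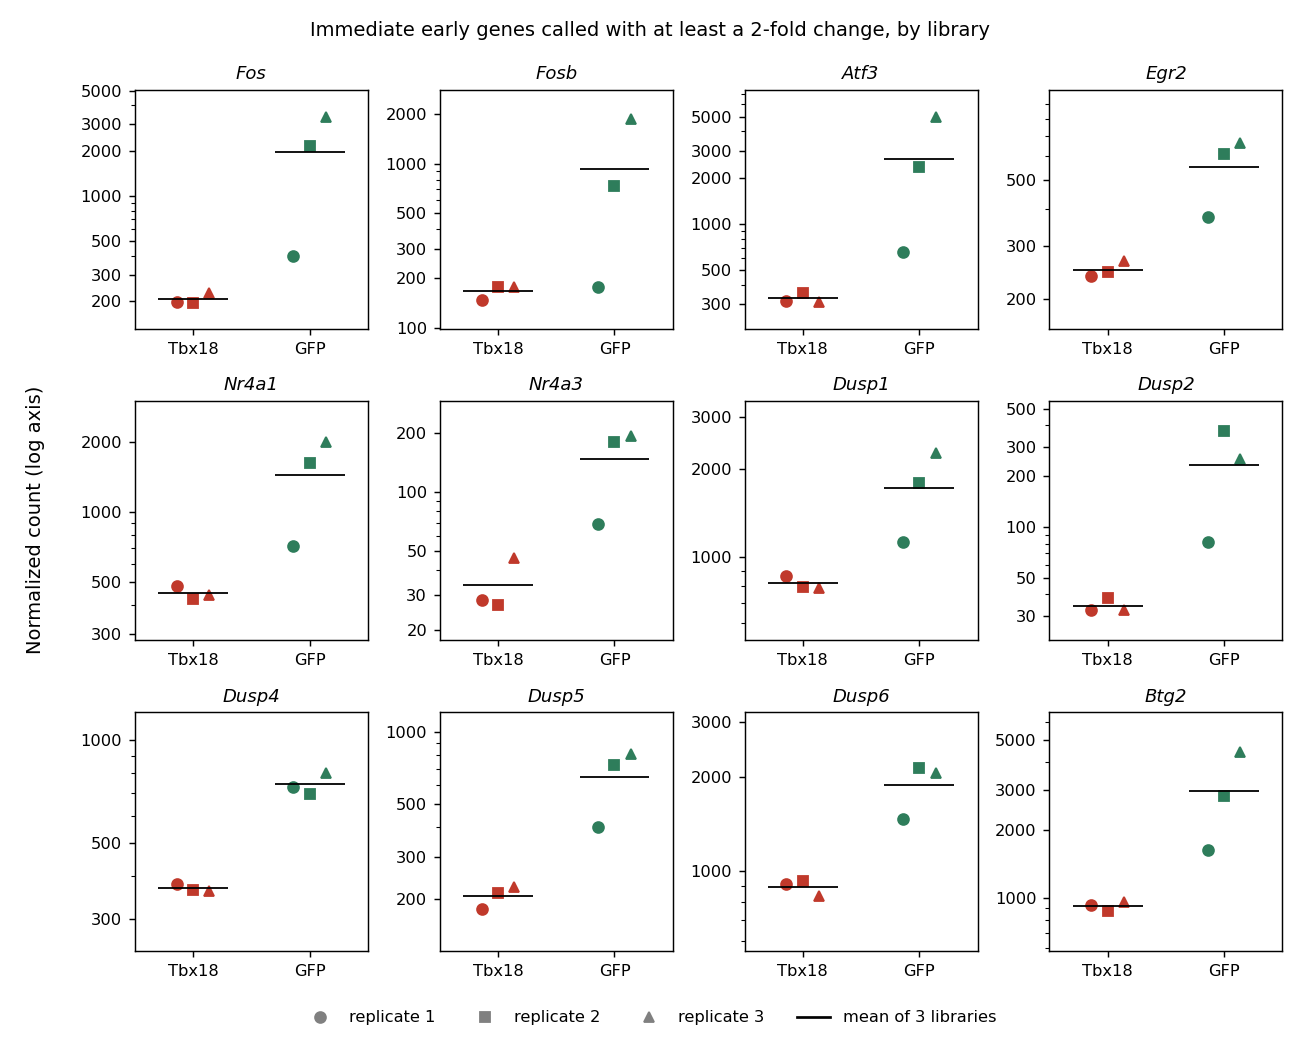
Normalized counts on log axes in each Tbx18 library (red, left) and each GFP library (green, right) of the 12 genes called with at least a 2-fold change, with the mean of 3 libraries as a line and a symbol for each replicate number. The Tbx18 libraries lie close together in most panels, and GFP replicate 1 (circle) is the lowest GFP library in each of these genes except Dusp4.

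Of the 3 tested EGR genes, which encode zinc finger factors that bind GC-rich sites, 2 fell. Egr1, with 2 CArG boxes in the window printed above, had 1572, 1671 and 1984 counts in Tbx18 and 1831, 3120 and 5876 in GFP. GFP replicates 2 and 3 were above all Tbx18 libraries and GFP replicate 1 was within their range. Egr1 was called lower close to the threshold (log2 fold change -0.90, SE 0.33, limma adjusted p = 0.0482). Egr2, best known from Schwann cell myelination and also induced by serum, had 237, 246 and 267 counts in Tbx18 and 377, 609 and 666 in GFP, with no overlap, and fell 2.14-fold (log2 fold change -1.10, SE 0.19, limma adjusted p = 0.00143). Egr3, which is induced later than Egr1 and binds similar sites, had 24.9, 31.8 and 31.6 counts in Tbx18 and 35.1, 17.3 and 115 in GFP. The GFP libraries lay on both sides of the Tbx18 libraries, and Egr3 was not called (log2 fold change -0.49, interval -1.73 to 0.74). Egr4 was listed at 6.44, 14.3 and 6.14 counts in Tbx18 and 5.32, 1.23 and 5.75 in GFP and was too low to test.

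Of the 3 NR4A genes, orphan nuclear receptors induced by cAMP and calcium, 2 fell. Nr4a1 had 483, 423 and 442 counts in Tbx18 and 715, 1623 and 1992 in GFP. All GFP libraries were above the Tbx18 libraries, and the fall was 2.94-fold (log2 fold change -1.56, SE 0.30, limma adjusted p = 0.00252). Nr4a3 had 28.5, 26.6 and 46.5 counts in Tbx18 and 69.1, 179 and 192 in GFP, and again the groups did not overlap (3.98-fold lower, log2 fold change -1.99, limma adjusted p = 0.00227). Nr4a2, required for midbrain dopamine neurons and inducible like its paralogs, was at 77.6 ± 20.2 in Tbx18 and 57.1 ± 5.60 in GFP. It was not called (log2 fold change 0.41, interval -0.08 to 0.90), although its Tbx18 libraries, at 65.6 or more, all lay above its GFP libraries, at 62.1 or less. With equal recovered reads Nr4a2 was called higher (log2 fold change 0.67, limma adjusted p = 0.027).

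Among the KLF and remaining transcription factor genes, 3 of 7 fell and 1 rose. Klf4, a zinc finger factor of smooth muscle and endothelial quiescence and of pluripotency, had 1405, 1391 and 1585 counts in Tbx18 and 603, 866 and 933 in GFP. All Tbx18 libraries were above all GFP libraries, and Klf4 was the 1 gene of the set called higher (1.85-fold, log2 fold change 0.89, SE 0.15, limma adjusted p = 0.00117). Myc, the growth-promoting E-box factor, had 705, 867 and 776 counts in Tbx18 and 978, 1328 and 1892 in GFP. Its groups did not overlap and it fell 1.73-fold (log2 fold change -0.79, SE 0.20, limma adjusted p = 0.00994). Klf10, a TGF-beta-inducible repressor, was at 1033 ± 92.8 in Tbx18 and 1522 ± 358 in GFP, and Csrnp1, a nuclear protein induced by AXIN1, was at 632 ± 24.8 in Tbx18 and 1069 ± 400 in GFP. Both were called lower, Klf10 by 0.53 on the log2 scale (limma adjusted p = 0.0228) and Csrnp1 by 0.68 (limma adjusted p = 0.0355). Srf, which encodes the serum response factor itself and carries 2 CArG boxes, had 2208, 2130 and 2349 counts in Tbx18 and 2268, 1867 and 1939 in GFP. These ranges overlapped and Srf was not called (log2 fold change 0.14, interval -0.07 to 0.35), although quantile normalization and equal recovered reads each put it past the threshold as higher. Klf6, a ubiquitous KLF factor induced by injury, had 2136, 2205 and 2223 counts in Tbx18 and 1978, 2692 and 3259 in GFP and was not called (log2 fold change -0.24, interval -0.59 to 0.10, and 0.02 with equal recovered reads). Klf2, a flow-responsive endothelial factor, was at 462 ± 85.3 in Tbx18 and 444 ± 115 in GFP, also without a call.

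All 5 dual-specificity phosphatase genes of the set fell, each with all Tbx18 libraries below all GFP libraries. Dusp2, whose nuclear product acts on ERK and p38, had 32.2, 37.9 and 32.5 counts in Tbx18 and 81.9, 370 and 252 in GFP. All GFP libraries were far above the Tbx18 libraries, and the fall was 5.65-fold (log2 fold change -2.50, SE 0.45, limma adjusted p = 0.00158). Dusp5, a nuclear phosphatase selective for ERK, had 180, 212 and 223 counts in Tbx18 and 400, 727 and 804 in GFP. It fell 3.01-fold (log2 fold change -1.59, SE 0.23, limma adjusted p = 0.000495). Dusp6, the cytoplasmic ERK phosphatase, had 908, 928 and 833 counts in Tbx18 and 1469, 2141 and 2059 in GFP and fell 2.10-fold (log2 fold change -1.07, SE 0.14, limma adjusted p = 0.000241). Dusp1, which acts mainly on p38 and JNK, had 866, 796 and 785 counts in Tbx18 and 1129, 1792 and 2262 in GFP and fell 2.04-fold (log2 fold change -1.03, SE 0.21, limma adjusted p = 0.00295). Dusp4, a nuclear phosphatase of ERK and JNK, stood out by its even values. It had 381, 365 and 362 counts in Tbx18 and 729, 697 and 803 in GFP, 2.00-fold lower, and had the smallest adjusted p of the set (SE 0.10 on the log2 scale, limma adjusted p = 5.48e-05).

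Of the 7 genes of IER proteins and other feedback regulators, 4 fell and 3 did not pass the test. Btg2, an antiproliferative cofactor of mRNA deadenylation with a CRE in the window printed above, had 933, 871 and 958 counts in Tbx18 and 1631, 2832 and 4395 in GFP. It fell 2.96-fold with no overlap (log2 fold change -1.57, SE 0.28, limma adjusted p = 0.00146). Ier3, a regulator of survival downstream of ERK and NF-kappaB, had 1669, 1988 and 1691 counts in Tbx18 and 2822, 3898 and 3847 in GFP (1.96-fold lower, limma adjusted p = 0.000327). Ier5, an adaptor of the phosphatase PP2A, had 1751, 1706 and 1705 counts in Tbx18 and 2298, 3012 and 3767 in GFP (1.72-fold lower, limma adjusted p = 0.0023). In both genes the groups were separate, and the Tbx18 values of Ier5 were nearly level. Zfp36, encoding tristetraprolin, which binds AU-rich elements and speeds mRNA decay, was at 660 ± 60.6 in Tbx18 and 1156 ± 317 in GFP (1.71-fold lower, limma adjusted p = 0.00589). Ier2, a nuclear protein of the same early wave, was at 1542 ± 44.4 in Tbx18 and 2083 ± 841 in GFP and was not called (interval -0.92 to 0.24). Sik1, a salt-inducible kinase that restrains CREB coactivators, was at 914 ± 121 in Tbx18 and 976 ± 197 in GFP, and Gadd45b, a stress sensor upstream of p38 and JNK, was at 914 ± 54.4 in Tbx18 and 919 ± 122 in GFP. For Sik1 the interval of the log2 difference was -0.43 to 0.27 and for Gadd45b -0.25 to 0.25.

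Neither cytoplasmic effector gene was called. Arc, a synaptic protein of activity-induced plasticity in neurons, had 305, 224 and 296 counts in Tbx18 and 94.7, 251 and 304 in GFP, with GFP replicate 1 the lowest of all 6 libraries (log2 fold change 0.49, interval -0.32 to 1.31). Rhob, a short-lived GTPase of endosomes, had 3614, 3696 and 3689 counts in Tbx18 and 2542, 3137 and 3776 in GFP (log2 fold change 0.24, interval -0.05 to 0.52), and it was called higher after quantile normalization and with equal recovered reads. The 3 Tbx18 libraries of Rhob differed by a factor of 1.02 between the lowest and the highest, and those of GFP by 1.49.

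The GFP libraries differed among themselves in these genes far more than the Tbx18 libraries did. Spread is given here as the SD of log2(normalized count + 1) over the 3 libraries of a group. Its median over the 36 tested genes was 0.12 in Tbx18 and 0.44 in GFP, while over all genes tested it was 0.10 in Tbx18 and 0.17 in GFP. The SD was larger in GFP for 35 of the 36 genes (97.2%), the exception being Nr4a2, and for 74.0% of all genes tested. It was at least double in GFP for 29 of the 36 (80.6%) and for 41.7% of all. Without GFP replicate 1 the SD was larger in GFP for 25 of the 36 and its median in GFP was 0.23. The matching share of all genes was not computed, so that count has no background here. Without Tbx18 replicate 3 the median SD in Tbx18 was 0.07. With 3 libraries a group no test of the spread was made.

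Gene by gene, the spread in GFP ran from 0.10 for Dusp4 to 1.71 for Fosb. Fosb, Fos and Atf3 had SDs of 1.71, 1.62 and 1.47, and Dusp2 had 1.12. Among all 11230 genes tested, these genes held ranks 10, 18, 29 and 77 by this SD. Among the 9229 genes whose mean was 100 counts or more, they held ranks 1, 2, 3 and 7. Dusp2 reached that mean only through its GFP libraries, with a mean of 235 in GFP and 34.2 in Tbx18. SDs in the Tbx18 libraries were 0.15 for Fosb, 0.11 for Fos, 0.11 for Atf3 and 0.13 for Dusp2. Between the lowest and the highest GFP library these genes differed by factors of 10.5 for Fosb, 8.43 for Fos, 7.52 for Atf3 and 4.52 for Dusp2. None of the 4 differed by more than a factor of 1.204 between the Tbx18 libraries. Of the 33 genes of the set above that mean, 7 were among the 100 with the largest GFP spread and 17 among the first 500. Egr3 (1.35), Arc (0.90), Egr1 (0.84) and Nr4a3 (0.82) completed the 8 most variable of the set. They were followed by Nr4a1 with 0.78, Btg2 with 0.72, Junb with 0.70, Ier2 with 0.66, Jun with 0.60 and Csrnp1 with 0.58. A middle group of Dusp5 (0.54), Dusp1 (0.51), Myc (0.48), Jund (0.44), Egr2 (0.44) and Zfp36 (0.41) was still above the median of all genes. The same was true of Klf2 (0.38), Klf6 and Klf10 (both 0.36), Ier5 (0.36), Fosl1 and Klf4 (both 0.34), Sik1 (0.31), Dusp6 (0.30), Maff (0.29), Rhob (0.28), Fosl2 (0.27), Ier3 (0.26) and Gadd45b (0.20). Srf with 0.15, Nr4a2 with 0.14 and Dusp4 with 0.10 were the 3 below it.

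**Figure D3:**
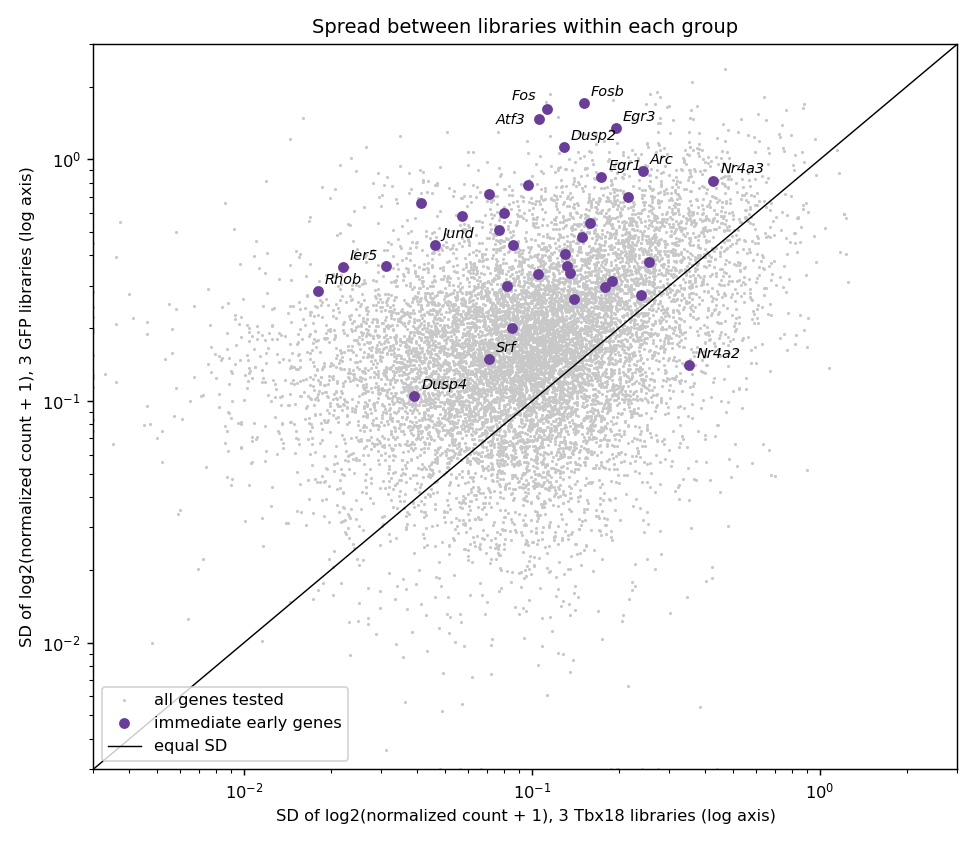
SD of log2(normalized count + 1) over the 3 GFP libraries against that over the 3 Tbx18 libraries, on log axes, for the 36 immediate early genes (purple) and all genes tested (grey, the smallest SDs drawn at the axis edge). All purple points but Nr4a2 lie above the line of equal SD, and Fos, Fosb and Atf3 lie near the top of the cloud.

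The differences between GFP libraries had the same direction in most of the set. GFP replicate 1 was the lowest GFP library for 31 of the 36 genes (86.1%) and for 38.5% of all genes tested, and GFP replicate 3 was the highest for 29 (80.6%) and for 30.1% of all. Both held together for 26 of the 36 genes (72.2%) and for 17.0% of all genes tested, and GFP replicate 3 was the lowest for 0 of the 36. Over the 36 genes, the median deviation from the GFP mean was -0.42 in GFP replicate 1, 0.11 in replicate 2 and 0.37 in replicate 3 on the log2 scale, and over all genes tested -0.01, 0.02 and 0.01. The Tbx18 libraries deviated from their own mean by medians of -0.06, -0.02 and 0.05. Of the genes outside this pattern, Srf and Sik1 had GFP replicate 1 the highest and GFP replicate 2 the lowest, Fosl2, Egr3 and Dusp4 had GFP replicate 2 the lowest, and Maff, Klf2, Dusp2, Dusp6 and Ier3 had GFP replicate 2 the highest. Among the GFP libraries, replicate 1 also had the lowest summed myocyte marker level, 760641, and the highest summed fibroblast marker level, 278871, while read totals were 18934232, 17460507 and 18200875 in GFP replicates 1, 2 and 3. The part of these differences in the spread was not tested.

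The size of the group difference varied with the GFP library it was set against. Against the mean of the Tbx18 libraries, the median log2 difference over the 36 genes was 0.19 for GFP replicate 1, 0.80 for replicate 2 and 1.15 for replicate 3. Over all genes tested the same medians were -0.002, -0.001 and -0.0. GFP replicate 1 lay within 0.5 of the Tbx18 mean on the log2 scale for 20 of the 36 genes, and replicates 2 and 3 for 10 each. The same counts over all genes were not made, so these compare the 3 GFP libraries only. For Fos the 3 differences were 0.94, 3.37 and 4.02, for Fosb 0.09, 2.12 and 3.48, for Jun 0.09, 0.83 and 1.28, and for Egr1 0.08, 0.85 and 1.76. Dusp4 had 0.98, 0.91 and 1.12, so that each GFP library gave about the same difference.

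**Figure D4:**
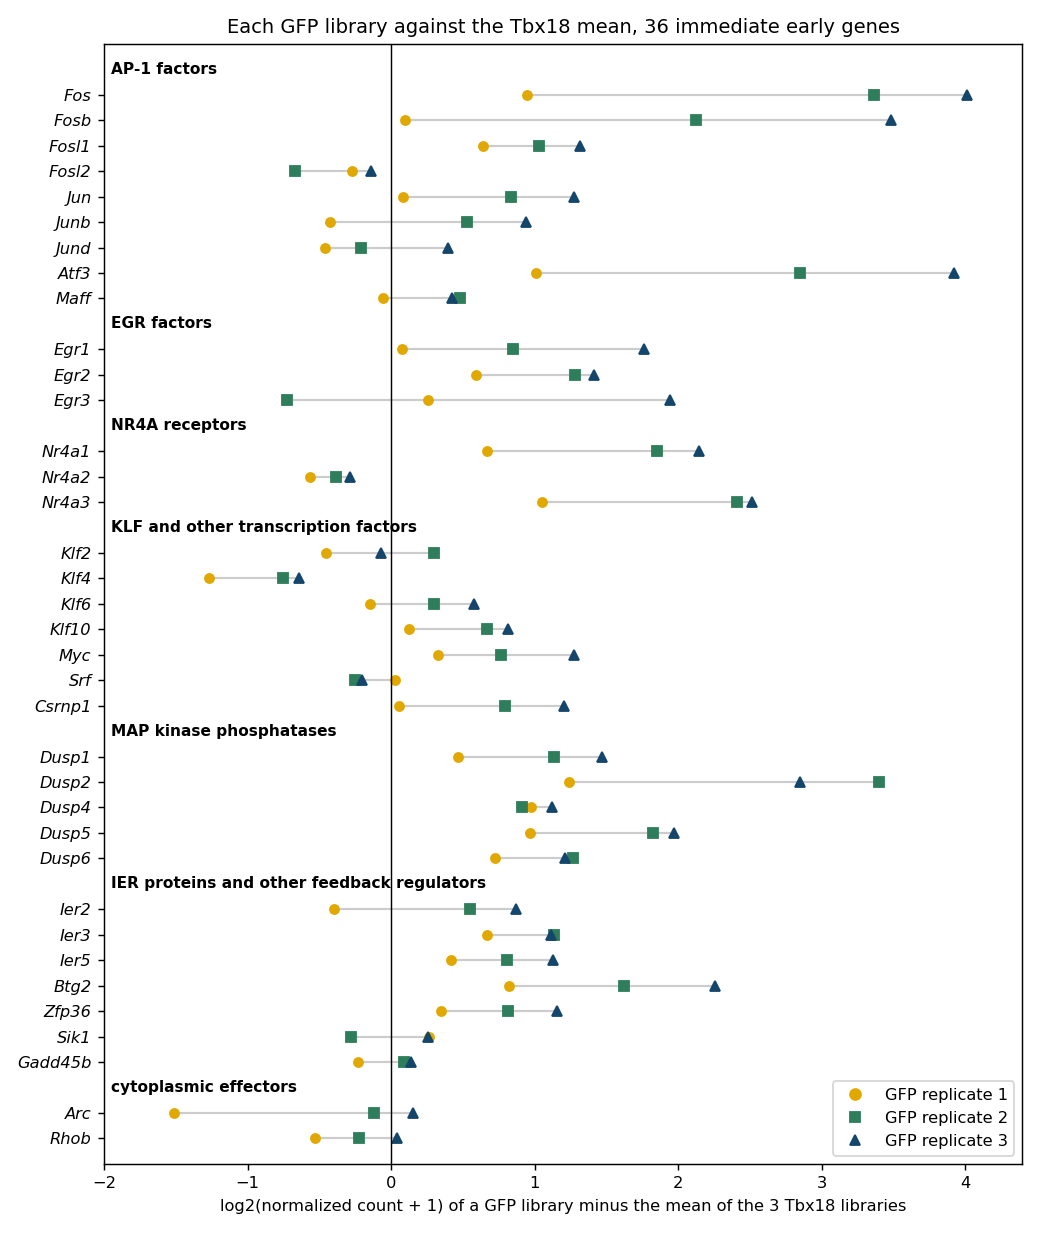
Difference of each GFP library from the mean of the 3 Tbx18 libraries on the log2(normalized count + 1) scale for the 36 tested genes, by family. GFP replicate 1 (yellow) is the leftmost symbol for 31 genes, and the symbols nearly coincide for Dusp4.

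Leaving out single libraries moved several of the called values. Without GFP replicate 1, 25 of the 36 were called lower and 2 higher (Klf4, Srf), beside 26.3% and 25.7% of all genes. Junb, Maff, Klf6 and Ier2 were the 4 genes added to those lower. Without GFP replicate 3, 16 were lower and 3 higher (Jund, Klf4, Rhob), beside 21.1% and 20.5% of all genes. For Fos the log2 fold change was -3.69 when GFP replicate 1 was left out and -2.16 when GFP replicate 3 was, for Atf3 -3.39 and -1.93, and for Dusp2 -3.13 and -2.32, and these 3 genes stayed called in both. Fosb, with -2.80 and -1.11, Jun, with -1.05 and -0.46, Egr1, with -1.30 and -0.46, and Csrnp1, with -0.998 and -0.42, were called with GFP replicate 1 left out. They lost the call with GFP replicate 3 left out, at limma adjusted p = 0.0886 for Fosb, 0.0785 for Jun, 0.0983 for Egr1 and 0.101 for Csrnp1. Klf10 was also lost there, at limma adjusted p = 0.0752. These 5 genes were the only ones of the 21 that lost the call under any of the 19 alternatives tried. Fosb, Jun, Egr1 and Csrnp1 were not called without any 1 of the Tbx18 libraries either, and Klf10 was not called without Tbx18 replicate 3. None of the 5 was called without GFP replicate 2. Egr1 lost the call under 13 of the 19, TMM scaling and DESeq2 among them, Jun and Csrnp1 under 8 each, Fosb under 7 and Klf10 under 5. With quantile normalization 19 of the 36 were lower and 3 higher, beside 22.9% and 22.5% of all genes. Over the alternatives, limma, edgeR or DESeq2 adjusted p ran from 3.77e-05 to 0.107 for Fosb, from 5.47e-05 to 0.107 for Jun, from 0.000522 to 0.124 for Egr1, from 0.000171 to 0.157 for Klf10 and from 8.30e-05 to 0.135 for Csrnp1. The other 16 genes, among them Fos, Atf3, Egr2, Nr4a1, Nr4a3, Btg2, Myc and the 5 phosphatase genes, stayed called lower under all 19, as did Klf4 in the higher direction. All 19 shared variance information across genes. None rested only on a gene's own spread within each group, so calls of genes as uneven in GFP as Fos and Atf3 were not tried that way. With equal recovered reads, where the median of all genes was 0.27, the log2 fold change was -0.27 for Klf10, -0.47 for Jun, -0.42 for Csrnp1, -0.51 for Zfp36 and -0.52 for Ier5.

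Genes with the printed elements included called and uncalled ones. Of the 6 genes with a CArG box, 4 were lower (Dusp5, Egr1, Egr2, Zfp36) and 2 were not called (Klf6, Srf). Of the 5 with a full CRE, 2 were lower (Btg2, Dusp1) and 3 were not called (Ier2, Jund, Maff). In the whole tested set 58.3% were called lower, and among all genes tested 23.5%. A relation between the elements and the calls was not tested.

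Genes that act around the set were described from 3 further lists. With equal recovered reads, 14, 33 and 17 of their genes were called higher in the order given here, beside 42.6% of all genes tested. Under that scaling 3, 10 and 24 were called lower, beside 12% of all. Of 36 tested partner factors and cofactors, 9 (25.0%) rose and 6 (16.7%) fell, beside 22.5% and 23.5% of all genes tested, with a median log2 fold change of 0.03. Maf, a large MAF factor, rose to 254 ± 54.2 counts in Tbx18, against 74.9 ± 11.7 in GFP (log2 fold change 1.74, limma adjusted p = 0.000103), Myocd, the SRF coactivator of smooth and cardiac muscle, fell to 564 ± 103 in Tbx18, against 1334 ± 260 in GFP (-1.24, limma adjusted p = 0.000333), and Creb5, a leucine zipper factor that can pair with JUN, fell to 214 ± 27.4 in Tbx18, against 420 ± 154 in GFP (-0.92, limma adjusted p = 0.00924). Of 67 tested genes of the MAP kinase pathway and its inhibitors, 16 (23.9%) rose and 14 (20.9%) fell, near the same shares of all genes, with a median of 0.04. Mapk13, encoding p38 delta, had 34.1, 48.2 and 75.5 counts in Tbx18 and 1.06, 3.70 and 5.75 in GFP, and Mapk10, the JNK isoform of brain and heart, had 20.3, 29.7 and 18.4 in Tbx18 and 2.13, 4.94 and 0 in GFP. Both were called higher, with a few reads at most in each GFP library (limma adjusted p = 0.000324 and limma adjusted p = 0.0031). Their GFP means, 3.51 and 2.36, were under the filter mean of 10. Both genes were tested only because their Tbx18 libraries were high, so these p-values only describe them. Gadd45a, a growth arrest gene of the same family as Gadd45b, fell to 1504 ± 114 in Tbx18, against 5656 ± 1231 in GFP (-1.89, limma adjusted p = 1.63e-05).

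The third list held 80 tested genes that stimuli also induce or that AP-1 and EGR factors are known to control. Like the other lists, it was chosen with earlier results of these data known, so its shares are a description. Of its tested genes, 33 (41.2%) fell and 10 (12.5%) rose, beside 23.5% and 22.5% of all genes tested, and the median log2 fold change was -0.33. Bdnf, a neurotrophin induced by calcium and CREB, had 111, 123 and 99.2 counts in Tbx18 and 314, 435 and 404 in GFP (log2 fold change -1.77, limma adjusted p = 3.33e-05). Hbegf, a membrane-anchored ligand of the EGF receptor, had 1066, 1107 and 976 counts in Tbx18 and 2235, 3580 and 5669 in GFP (-1.77, limma adjusted p = 0.000542). Areg, another ligand of that receptor, had 77.3, 100 and 67.6 counts in Tbx18 and 120, 312 and 559 in GFP (-1.76, limma adjusted p = 0.00977). For all 3 the groups were separate, and GFP replicate 1 was the lowest GFP library. The median spread of this list was 0.11 in Tbx18 and 0.31 in GFP, between the values of the immediate early genes and of all genes, and 37.5% of its genes had GFP replicate 1 lowest and GFP replicate 3 highest.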

How the data were processed

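The deposited signal was a table whose name describes it as DESeq2 normalized counts. Its values were taken as gene read counts divided by 1 size factor per library. Per the submitters' processing notes, the tools were DESeq2 1.10.1, STAR 2.4.0g1, bcl2fastq 2.17.1.14 and HTSeq. Genome build, annotation and the strand setting of counting: not given in the sources used here. Reads of overlapping, antisense or paralogous genes may therefore be uncertain. All values in the table were whole multiples of a library's smallest step within 0.01, which gave back read counts.

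The group difference came from limma (3.58.1, R 4.3.3) fitted with a mean-variance trend to log2(normalized count + 1), a scale that understates changes of low genes. Genes averaging under 10 were left out. P-values were adjusted by Benjamini-Hochberg over all genes tested. The test was tried on simulated counts in which each gene had the same dispersion (variation beyond counting) in both groups. That trial cannot show how the test behaves where GFP libraries spread more than Tbx18 libraries. Members, families and lists (204 symbols in 3 pathway lists, 10 without a row) and the alternatives were chosen with earlier results of these data known. The naming rule took, with values in every library, called members with a log2 change of at least 1 either way, the 8 with the largest SD in GFP, those averaging 2000 or more, and Fos, Jun, Egr1, Nr4a1, Dusp1, Myc, Srf and Atf3, and the 3 largest called changes of each list. Genes outside it, such as Klf4, were named to account for every member. edgeR 4.0.16 and DESeq2 1.42.0 were run on recovered reads with the deposited size factors, and other alternatives changed the pseudocount, filter, scaling, trend, weights, block or libraries.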

Additional observations from a re-analysis of the deposited data

How the results depend on the processing

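Of 455 combinations of 24 named genes with 19 alternatives, 414 kept direction and side of the threshold, 28 lost a call, 9 gained one and 4 changed sign. Those 4 were uncalled: Jund was -0.094 and Arc -0.018 without GFP replicate 1, Egr3 0.234 without GFP replicate 3, and Klf6 0.021 with equal recovered reads. Leaving out single libraries gave up to 0.337 for Jund and 0.817 for Arc and down to -1.099 for Egr3. The cause was not tested. The count of members called lower ran from 16 to 25 when 1 library was left out and that of members called higher from 1 to 3. Of all genes, 26.3% were lower and 25.7% higher without GFP replicate 1, and 21.1% and 20.5% without GFP replicate 3. Shares of all genes without any other library were not computed. Higher calls among members numbered 3 after quantile normalization and 5 with equal recovered reads, beside 22.5% and 42.6% of all genes. With 1 library left out the median log2 fold change of members ran from -0.99 to -0.46, the median SD in Tbx18 from 0.069 to 0.121 and that in GFP from 0.228 to 0.595. With equal recovered reads, partner factors and cofactors had 14 higher and 3 lower, and the MAP kinase list 33 higher and 10 lower. The third list had 17 higher and 24 lower there. In the main test these lists held 36, 67 and 80 genes. Of all genes, 42.6% were higher and 12% lower with equal recovered reads. Low genes such as Egr4 are limited by depth. With the replicate number as a block 21 members were lower and 1 higher, as without it. The shares of all genes with that block were not computed. Same-numbered libraries correlated in their deviations by -0.01, 0.15 and 0.02 over genes, and not every library correlated best with its own number, so the numbers were not treated as pairs.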
